A study of Mus musculus with 7 samples.

Results

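The Meis1 Ebf1 Pbx3 glutamatergic neurons of the posterolateral cortical amygdala are nuclei that carry UMIs (unique molecular identifiers, one per captured RNA molecule) of these transcription factor genes beside a vesicular glutamate transporter. They were chosen by measured values. Nuclei were barcodes with at least 1000 genes and at most 30000 UMIs, glutamatergic nuclei had at least 2 UMIs of Slc17a7 and Slc17a6 together and at most 1 of Gad1 and Gad2, and members had at least 5 UMIs over Meis1, Ebf1 and Pbx3, at least 2 of these genes detected and at most 1 Ebf2 UMI. The rule kept 1388 of 16248 glutamatergic nuclei (8.54%), out of 51115 nuclei in all. The other 14860 glutamatergic nuclei served as the comparison.

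Single nuclei came from this olfactory area of male C57BL6J mice aged 8 weeks, dissected into an anterior domain (aplCoA) and a posterior domain (pplCoA). Each library pooled dissected tissue from several animals, deprived of sensory input before collection, and nuclei were sorted on a DNA dye and sequenced by the 10x 3' v3.1 method. There were 3 replicates per domain and 7 libraries, because aplCoA replicate 1 was sequenced as 2 libraries, which were summed. Because a library pools animals, the spread between replicates is that between pools.

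MEIS and PBX proteins are TALE homeodomain factors that bind DNA as partners, and EBF proteins are zinc-knuckle helix-loop-helix factors that steer neuronal differentiation. VGluT1 (Slc17a7) and VGluT2 (Slc17a6) load glutamate into synaptic vesicles. In forebrain, VGluT1 is typical of cortical projection neurons, whereas VGluT2 is typical of thalamic, hypothalamic and some amygdalar neurons.

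The libraries held 50812605 to 129624583 UMIs over all barcodes, and 4191 to 15847 nuclei per replicate passed. Members had a median of 12089 UMIs and 3923.5 genes, and the other glutamatergic nuclei 13744.5 UMIs and 4041 genes. Barcodes shared between 2 libraries numbered 5 to 36 over 21 pairs of libraries, with 22 for the pair of aplCoA replicate 1, and 0 members shared a barcode with a member of another library. Doublet scores, which rank nuclei by likeness to simulated mixtures, put 11.7% of members and 11.9% of the others among the nuclei set aside in an alternative.

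The markers that chose the members did not contribute alike. Pbx3 was detected in 99.5% of members, Meis1 in 92.1% and Ebf1 in only 48.1%, against 26.0%, 4.36% and 4.75% of the other glutamatergic nuclei. All of the markers were detected together in 39.7% of members, Meis1 with Pbx3 but no Ebf1 in 51.9%, Ebf1 with Pbx3 but no Meis1 in 7.85%, and Meis1 with Ebf1 but no Pbx3 in 0.504%. The name therefore described Meis1 and Pbx3 well and Ebf1 for about as many members as not.

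Ebf1 also varied most between replicates. It was detected in 55.0%, 31.6% and 42.9% of members in aplCoA replicates 1, 2 and 3 and in 45.7% and 16.7% in pplCoA replicates 1 and 2. In pplCoA replicate 3 it was found in 0 of 9 members, which allows a share of members with a UMI of up to 33.3% (3 counts of 9). Meis1 stayed between 83.3% and 100% and Pbx3 between 96.8% and 100% in every replicate. These values belong to the rule and carry no test.

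At the edge of the rule, 69 members had exactly 5 UMIs of the markers, and 71 nuclei with 2 or more of the genes stood just outside with 4 UMIs. VGluT2 without VGluT1 was detected in 33.3% of the former and 25.4% of the latter. The median member had 23 marker UMIs and 1233 members had 8 or more, so most lay far from the edge. A further 312 glutamatergic nuclei had at least 5 UMIs from one of the genes alone, and 44 failed only on Ebf2.

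Markers of other cells were mixed. Trp73, Lhx1 and Lhx5, which mark Cajal-Retzius cells, reached at most 1.37 CPM (a gene's share of all UMIs of the class in that replicate, on the usual CPM scale of UMI counts scaled to library size) in the members of any replicate, and Slc32a1, the vesicular GABA transporter, at most 2.01 CPM. Reln, a further gene of the Cajal-Retzius list, had 130 to 222 CPM in members and 70.9 to 173 CPM in the others, and Ndnf had 6.61 to 12.3 CPM in aplCoA members against 1.78 to 4.51 CPM in the other aplCoA nuclei. The mural genes Kcnj8, Abcc9 and Rgs5 reached at most 0.731 CPM. Over the whole endothelial list, the summed level was 5.79 to 8.33 CPM in aplCoA members, 5.70 to 41.6 CPM in pplCoA members and 3.05 to 4.42 CPM in the other nuclei of both domains. Over the whole mural list it was 20.3 to 24.8 CPM, 8.42 to 57.0 CPM and 14.2 to 22.2 CPM. For the list of vascular leptomeningeal cells it was 6.12 to 16.0 CPM, 0 to 5.70 CPM and 3.72 to 15.3 CPM, and for the GABAergic list, whose Gad1 and Gad2 the rule used, 6.20 to 10.1 CPM, 0 to 8.42 CPM and 3.13 to 10.3 CPM. All genes of the GABAergic list were at 0 in the members of pplCoA replicate 2 and all of the leptomeningeal list in those of pplCoA replicate 3. The list of oligodendrocyte precursors gave 10.2 to 22.3 CPM, 16.8 to 39.9 CPM and 8.50 to 13.1 CPM. The microglial, astrocyte and oligodendrocyte lists were higher than these in both classes. The summed level was 97.2 to 172 CPM in members and 95.4 to 158 CPM in the others for microglia, with P2ry12 alone at 67.4 to 91.3 CPM in members, 133 to 279 CPM and 177 to 259 CPM for astrocytes, mostly Slc4a4, and 67.4 to 96.2 CPM and 72.9 to 100.3 CPM for oligodendrocytes. The part of glial RNA in the results was not tested. The part of vascular RNA in the results was not tested. With nuclei carrying 3 or more such UMIs left out, a setting chosen after seeing the data, 1545 genes were called between members and the other glutamatergic nuclei, and 1509 with them.

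Members came mostly from aplCoA in these libraries. Of the 1388 members, 1273 (91.7%) came from aplCoA, whereas 53.4% of the other glutamatergic nuclei did. The other VGluT2 nuclei had a like split. Of 610 other glutamatergic nuclei with VGluT2 and no VGluT1 UMI, 539 (88.4%) came from aplCoA, and they made up 6.95%, 3.87% and 4.66% of glutamatergic nuclei in aplCoA replicates 1, 2 and 3 and 1.74%, 0.498% and 0.322% in pplCoA. Members made up 14.7% of glutamatergic nuclei in aplCoA replicate 1 (767 members, exact 95% interval 13.7 to 15.7%), 12.5% in replicate 2 (152 members, 10.7 to 14.5%) and 12.8% in replicate 3 (354 members, 11.6 to 14.1%). In pplCoA they made up 2.97% in replicate 1 (94 members, 2.41 to 3.62%), 0.597% in replicate 2 (12 members, 0.309 to 1.04%) and 0.482% in replicate 3 (9 members, 0.221 to 0.914%). Every aplCoA replicate stood above every pplCoA replicate.

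Averaged over replicates, members were 13.3 ± 1.18% of aplCoA and 1.35 ± 1.40% of pplCoA glutamatergic nuclei (SD, n = 3 each), which differ by a ratio of 9.88. The exact two-sided permutation test gave p = 0.1, the smallest value that 3 against 3 replicates allow. Intervals cover counting error only. pplCoA replicate 1 held most of the pplCoA members, and without it the ratio was 24.7. The libraries of aplCoA replicate 1 differed beyond counting error, with 13.3% (12.2 to 14.4%) in library 1 and 17.9% (16.0 to 19.9%) in library 2, and each was above every pplCoA replicate. With each nucleus thinned to 5000 UMIs before the rule was applied, the shares were 10.99 ± 0.843% and 0.958 ± 0.947% (SD, n = 3 each).

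**Figure D1:**
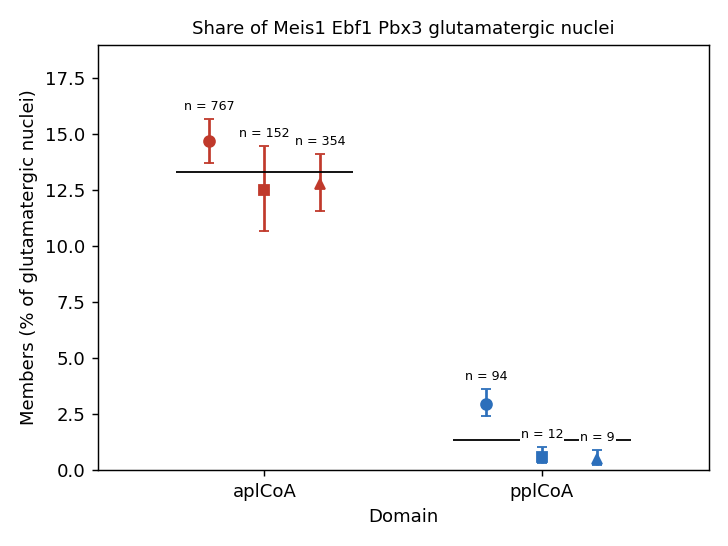
Members as a percentage of glutamatergic nuclei in each replicate (points, circle, square and triangle for replicates 1, 2 and 3), with exact 95% binomial intervals (bars), domain means (lines) and the number of members. The aplCoA replicates lie between 12.5% and 14.7% and the pplCoA replicates between 0.482% and 2.97%.

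VGluT2 was detected in a larger share of members than of the other glutamatergic nuclei, and VGluT1 in a smaller share. Both transporters entered the rule through their sum, so that less of one goes with more of the other, and the shares of the classes are a description without a test. With each nucleus thinned to 2000 UMIs, VGluT2 alone was detected in 39.7%, 35.9% and 40.4% of members in aplCoA replicates 1, 2 and 3 and in 30.3%, 35.9% and 39.0% in pplCoA. In the other nuclei the shares were 7.84%, 4.73% and 5.87% in aplCoA and 2.58%, 1.24% and 0.986% in pplCoA. The ranges of the classes did not overlap.

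The means over replicates were 36.9 ± 3.76% in members and 3.87 ± 2.74% in the others (SD, n = 6), with members above the others in 6 of 6 replicates. VGluT1 alone was found in 7.52 ± 2.21% of members and 42.7 ± 4.32% of the others, lower in members in 6 of 6. Both transporters together were found in 2.85 ± 1.80% and 1.45 ± 0.753%. Without thinning, 62.5 ± 7.54% of members had VGluT2 alone, 5.51 ± 3.39% VGluT1 alone and 32.0 ± 7.93% both.

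Microglia-like nuclei, which should lack both transporters, were taken to show the level of free RNA, which was not tested. The gate of at least 10 UMIs of microglial genes for these nuclei was set after seeing the data. At 2000 UMIs they showed VGluT2 alone in 0.866 ± 1.14% and VGluT1 alone in 5.06 ± 1.88% of nuclei (SD, n = 6), with median depths of 3362 to 4401.5 UMIs before thinning. Counting VGluT1 with or without VGluT2, the share was 10.4 ± 2.64% in members, 44.1 ± 3.74% in the other glutamatergic nuclei and 5.11 ± 1.91% in microglia-like nuclei (SD, n = 6), with members above the microglia-like nuclei in every replicate, by little in aplCoA replicate 1 (7.87% and 7.47%). This order turned with the gate of 3 UMIs planned at first, under which 20.2 ± 3.16% of microglia-like nuclei had VGluT1 and members were below them in 6 of 6 replicates, so no order of VGluT1 between members and free RNA is read from these shares. Between domains the members' shares with VGluT2 alone were 38.7 ± 2.45% in aplCoA and 35.1 ± 4.44% in pplCoA (SD, n = 3). Those with VGluT1 alone were 5.97 ± 0.577% and 9.06 ± 2.16%. VGluT1 with or without VGluT2 was found in 7.87%, 8.82% and 7.32% of members in aplCoA replicates 1, 2 and 3. In pplCoA it was found in 12.6%, 12.5% and 13.1%, of 94, 12 and 9 members. These shares are given without a test.

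**Figure D2:**
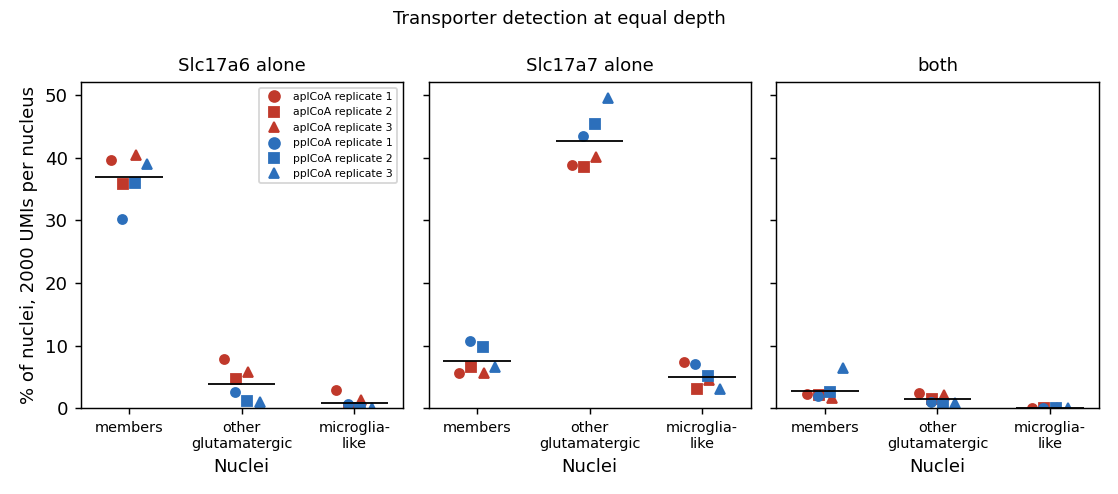
Share of nuclei with a UMI of Slc17a6 alone, Slc17a7 alone or both, each nucleus thinned to 2000 UMIs, in members, other glutamatergic nuclei and microglia-like nuclei of each replicate (points, red for aplCoA, blue for pplCoA) with the mean of the 6 replicates (lines). Members lie between 30.3% and 40.4% for Slc17a6 alone, and the other glutamatergic nuclei between 0.986% and 7.84%.

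Members also lay near other members when the genes that chose them were left out. On principal components of 2000 variable genes without the rule's genes, 83.9 ± 8.05% (SD, n = 6 replicates) of the 15 nearest glutamatergic neighbours of a member were members, whereas for the other nuclei 1.49% were. The shares were 81.9%, 82.2% and 82.9% in aplCoA replicates 1, 2 and 3 and 75.1%, 82.2% and 99.3% in pplCoA. Of the 1388 members, 1155 (83.2%) had mostly members as neighbours. These shares describe the set and were not tested. They do not show that members are of 1 kind, and members with and without Ebf1 are set apart below.

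Against the other glutamatergic nuclei, members had 663 genes higher and 846 lower of 10118 tested (6.55% and 8.36%, together 14.9%). A gene was called at an adjusted p below 0.01 and a change of at least 1.5-fold, by edgeR's quasi-likelihood test on UMIs summed per replicate and class with the replicate as a block, over genes detected in at least 10% of nuclei of either class. The rule's own genes were left out of all counts. Of the 1509 called genes, 1144 had the same direction in every replicate, and 26.9% of all tested genes did. In pplCoA replicates alone, 335 genes were called, on 115 members.

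The genes furthest above the other nuclei included Foxp2, Gpr149 and Hs3st4. Foxp2, a forkhead transcription factor, had 101, 122 and 95.6 CPM in members of aplCoA replicates 1, 2 and 3 and 65.8, 62.7 and 75.8 CPM in those of pplCoA, against 1.08 to 6.74 CPM in the others (log2 fold change 4.21, SE 0.17, adjusted p = 2.32e-08). Gpr149, an orphan G protein-coupled receptor, had 19.9, 26.9 and 26.0 CPM in aplCoA members and 35.8, 79.9 and 25.3 CPM in pplCoA members, against 0.302 to 1.63 CPM (log2 fold change 5.06, SE 0.33, adjusted p = 2.27e-07). Hs3st4, a heparan sulfate sulfotransferase, had 1874, 2557 and 2472 CPM in aplCoA and 2079, 2481 and 2879 CPM in pplCoA members, against 142 to 298 CPM (log2 fold change 3.44, SE 0.19, adjusted p = 7.44e-08). For these genes every member sum exceeded every sum of the other nuclei.

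Detection differed between these genes, and at their low levels a nucleus without a UMI of Foxp2 or Gpr149 may still express it. A UMI of Hs3st4 was found in 97.3% of members and 55.3% of the others, of Foxp2 in 33.4% and 2.75%, and of Gpr149 in 15.3% and 0.740%. Foxp2, Gpr149, Pappa2, Cdh6, Prkcq, Kit, Adra1a and Pard3bos1 passed the filter of 10% of nuclei through the members alone. They were in 0.740% to 9.64% of the others. Of the leading genes lower in members, all but Palmd passed it through the others alone. Some abundant leading genes had their UMIs in fewer members than others. The tenth of members with the most UMIs of a gene held 64.7% of all Nxph1 UMIs and 75.8% of Gpc5 UMIs, against 31.1% for Hs3st4 and 28.8% for Meis2.

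Nxph1 and Gpc5 also varied between replicates. Nxph1, a secreted ligand of alpha-neurexins, had 499, 847 and 801 CPM in members of aplCoA replicates 1, 2 and 3 and 590, 1945 and 2618 CPM in those of pplCoA, against 16.5 to 89.3 CPM in the others (log2 fold change 4.13, SE 0.57, adjusted p = 1.03e-04). Gpc5, a glypican, had 413, 893 and 694 CPM and 841, 2920 and 3082 CPM, against 56.5 to 117 CPM (log2 fold change 3.62, SE 0.48, adjusted p = 7.35e-05). The highest values came from pplCoA replicates 2 and 3, which rest on 12 and 9 members.

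Cdh6, a cadherin of cell adhesion, had 106 to 180 CPM in aplCoA members and 149, 428 and 707 CPM in pplCoA members, against 7.94 to 14.0 CPM (log2 fold change 4.02, SE 0.35). Pappa2, a protease of insulin-like growth factor binding proteins, had 64.0 to 127 CPM in aplCoA and 94.3 to 388 CPM in pplCoA members, against 3.31 to 5.07 CPM (log2 fold change 4.66, SE 0.28). Vwc2l, a secreted protein of the BMP pathway, had 194 to 316 CPM and 250 to 1086 CPM, against at most 31.8 CPM (log2 fold change 3.72, SE 0.33). All of the replicates had members above the others, which was required of the leading genes.

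Of the remaining leading genes, Prkcq, protein kinase C theta, had a log2 fold change of 3.995 (SE 0.44), Kit, a receptor tyrosine kinase, 3.85 (SE 0.27), Adra1a, the alpha-1A adrenergic receptor, 3.32 (SE 0.19), and the noncoding Pard3bos1 3.25 (SE 0.20). Adra1a had 59.5 to 84.8 CPM in aplCoA members and 64.3 to 202 CPM in pplCoA members, against 5.07 to 7.94 CPM.

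Among genes lower in members, Slc30a3, the transporter that loads zinc into vesicles of cortical glutamatergic terminals, had 4.64, 4.96 and 5.21 CPM in aplCoA members and 8.04, 11.4 and 0 CPM in pplCoA members, against 35.9 to 47.8 CPM in the others (log2 fold change -3.06, SE 0.13, adjusted p = 2.32e-08). Trabd2b, a membrane protease that acts on Wnt proteins, had 7.03 to 14.4 CPM in aplCoA and 8.04 to 11.4 CPM in pplCoA members, against 57.2 to 212 CPM (log2 fold change -3.57, SE 0.14). Palmd, palmdelphin, had 7.03 to 16.2 CPM and 8.42 to 28.5 CPM, against 87.0 to 123.3 CPM (log2 fold change -2.86, SE 0.12). No member sum of these genes reached the lowest sum of the others.

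Smoc2, a matrix protein, fell by 3.27 on the log2 scale (SE 0.13), Ano2, a calcium-activated chloride channel, fell by 3.25 (SE 0.14), Hgf, hepatocyte growth factor, fell by 2.92 (SE 0.18), Ccbe1, a secreted collagen-domain protein, fell by 2.90 (SE 0.13), and Exph5, a vesicle trafficking effector, fell by 2.80 (SE 0.19). Each was lower in members in 6 of 6 replicates, which was required of the leading genes.

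**Figure D3:**
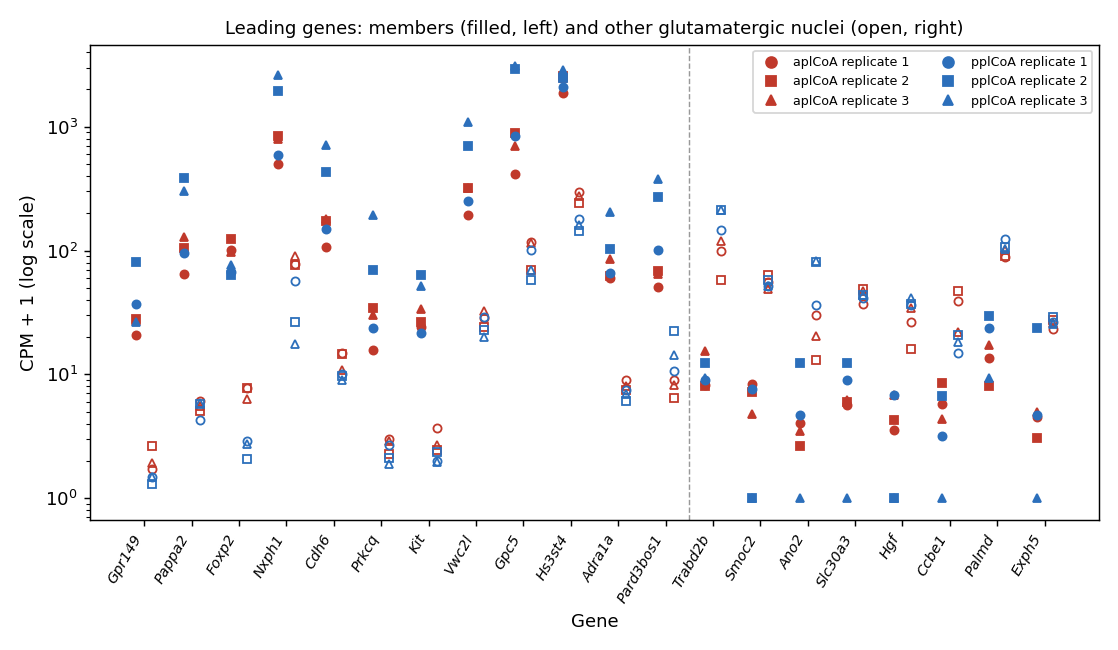
CPM plus 1 on a log scale for the 12 genes furthest above and the 8 furthest below the other glutamatergic nuclei (right of the dashed line), in members (filled, left) and others (open, right) of each replicate. Hs3st4 spans 1874 to 2879 CPM in members and 142 to 298 CPM in the others.

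The stretch of 250 bases before the start of each gene was read from RefSeq (build GRCm38.p6) and searched on both strands for CCCNNGGG, a core bound by EBF factors, for TGACAG, a core bound by MEIS factors, and for TGATTG, a core bound by PBX factors. Of the 12 leading genes, 9 had a window, and 3 of these held a match, shown in capitals below so that the matched letters can be read in place. At least one of the cores was in 36.5% of the windows of all tested genes. The windows of Meis1 and Ebf1 themselves held none of these letters.
Hs3st4 (chr7:123982578-123982827, plus strand): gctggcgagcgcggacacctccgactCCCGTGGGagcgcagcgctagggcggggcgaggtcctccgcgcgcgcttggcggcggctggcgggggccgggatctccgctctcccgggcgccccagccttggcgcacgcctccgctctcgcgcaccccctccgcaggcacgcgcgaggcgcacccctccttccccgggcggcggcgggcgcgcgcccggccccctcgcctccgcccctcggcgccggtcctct
Kit (chr5:75574737-75574986, plus strand): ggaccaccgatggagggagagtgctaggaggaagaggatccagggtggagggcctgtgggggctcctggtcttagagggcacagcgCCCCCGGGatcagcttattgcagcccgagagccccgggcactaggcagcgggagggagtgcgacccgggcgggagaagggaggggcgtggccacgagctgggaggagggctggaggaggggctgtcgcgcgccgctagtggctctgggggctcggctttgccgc
Cdh6 (chr15:13173676-13173925, minus strand): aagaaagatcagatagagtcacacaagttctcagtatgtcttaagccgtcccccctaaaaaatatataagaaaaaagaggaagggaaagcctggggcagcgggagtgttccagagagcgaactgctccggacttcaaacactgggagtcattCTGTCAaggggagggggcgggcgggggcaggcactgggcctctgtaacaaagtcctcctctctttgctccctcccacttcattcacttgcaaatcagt

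The EBF core was held by 78 of 471 windows (16.6%) of genes higher in members, 112 of 591 (18.95%) of genes lower in members, 15.4% of the 7719 windows of tested genes and 11.8% of all 32851 windows. For the MEIS core the shares were 14.0%, 15.1%, 13.4% and 15.9%, and for the PBX core 11.47%, 11.51%, 12.9% and 12.7%. The shares of higher and lower genes lay within a few percentage points of each other, and they describe letters in a short window, not binding.

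Transcription factor genes separated members from the other glutamatergic nuclei in both directions, beside 6.55% higher and 8.36% lower over all tested genes. Of the list of medial amygdala and diencephalic factors, 10 of 21 were tested, 7 rose and 0 fell, with a median log2 fold change of 1.62 against 0.00 over all tested genes. Genes were tested if detected in at least 10% of nuclei of either class, so the filter shapes this count and median. Foxp2, for example, in 33.4% of members and 2.75% of the others, entered through the members alone. Zic2, in 0.865% of members and 7.62% of the others, was not tested. Also not tested were Otp, Lhx8 and Isl1, with 0 UMIs in members, and Sim1, in 0.360% of members and 0.996% of the others. Lhx1, Lhx5, Lhx6, Zic1, Zic4 and Tcf7l2 were not tested either. They were in 0.216% to 5.26% of members and 0.148% to 4.74% of the others, each in a larger share of members. Foxp2 led, followed by Lhx9, a LIM homeobox factor, with 23.9, 23.6 and 23.1 CPM in aplCoA members and 14.6, 22.8 and 16.8 CPM in pplCoA members, against 1.28 to 4.57 CPM (log2 fold change 2.88, SE 0.19, adjusted p = 2.32e-07). Foxp4 (2.47, SE 0.23), Zfhx3 (2.22, SE 0.18), Tshz1 (1.74, SE 0.12), Tshz2 (1.496, SE 0.18) and Zfhx4 (1.11, SE 0.09) rose as well.

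Of 24 cortical projection neuron factors, 20 were tested, 12 fell and 6 rose, with a median log2 fold change of -0.89. Neurod2, a helix-loop-helix factor of cortical glutamatergic neurons, had 3.31 to 4.01 CPM in aplCoA members and 4.38, 5.70 and 0 CPM in pplCoA members, against 22.6 to 27.0 CPM (log2 fold change -2.74, SE 0.13). Bcl11a, a zinc finger factor, went the other way, with 200 to 271 CPM in aplCoA members and 221 to 354 CPM in pplCoA members, against 22.4 to 61.6 CPM (log2 fold change 2.46, SE 0.21). The remaining genes that rose were Tle4, Lhx2, Cux1, Satb1 and Cux2.

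Of the TALE genes outside the rule, Meis2 rose, with 755, 901 and 898 CPM in aplCoA members and 686, 736 and 1170 CPM in pplCoA members, against 96.4 to 271 CPM (log2 fold change 2.37, SE 0.17, adjusted p = 5.58e-07). It was found in 88.4% of members. Pknox1 rose by a log2 fold change of 1.10 (SE 0.10) and Pknox2 fell by 0.93 (SE 0.09), of 5 tested. Among EBF genes and partners, Zfp521, a zinc finger partner of EBF factors, rose (log2 fold change 1.98, SE 0.19), although it stood at 0 CPM in pplCoA replicate 2, and Zfp423 fell by 0.62 (SE 0.15), of 3 tested. The Zfp423 call was lost without any one of the replicates, with log2 fold changes of -0.73 to -0.56.

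**Figure D4:**
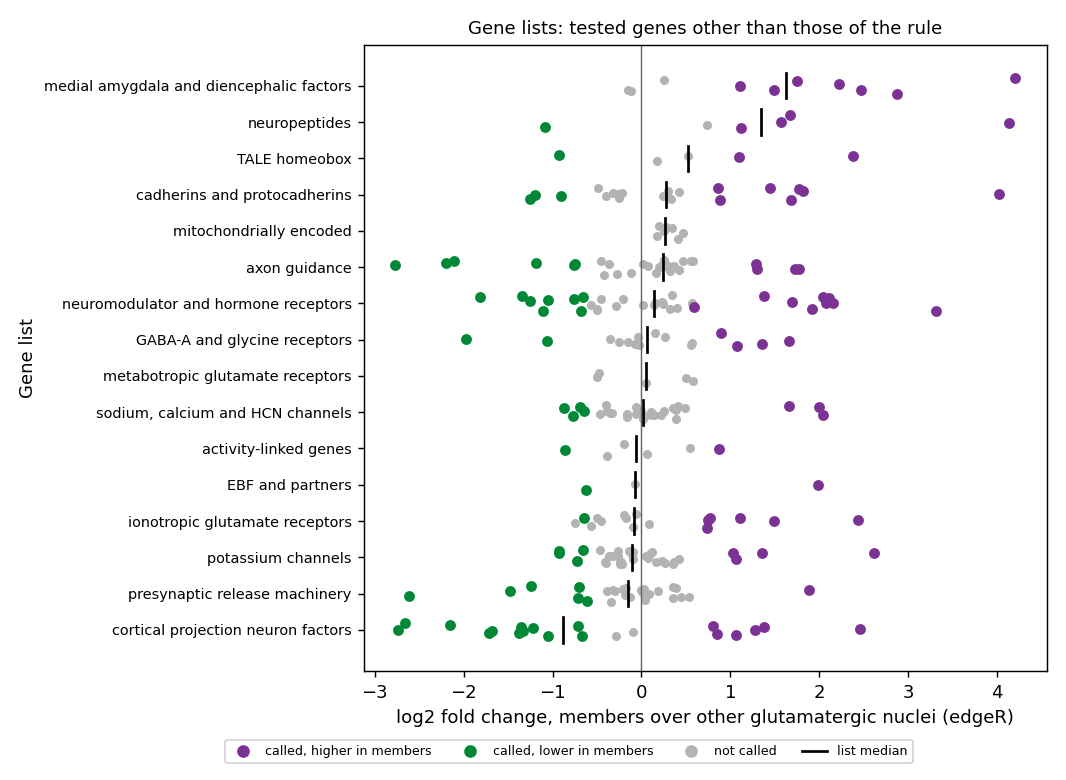
Log2 fold change of members over other glutamatergic nuclei for every tested gene of the 16 lists (points), with called genes in colour, genes not called in grey and list medians as bars. The list of medial amygdala and diencephalic factors has a median of 1.62 and that of cortical projection neuron factors one of -0.89.

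Receptors for neuromodulators were among the genes that differed between members and the other glutamatergic nuclei. Over all tested genes, 6.55% were higher and 8.36% lower. Of 52 neuromodulator and hormone receptor genes, 32 were tested, 9 rose and 8 fell, with a median of 0.15. Chrm3, a muscarinic acetylcholine receptor, had 1193, 1559 and 1687 CPM in aplCoA members and 1393, 3257 and 2770 CPM in pplCoA members, against 278 to 526 CPM (log2 fold change 2.11, SE 0.25, adjusted p = 3.14e-05). Tacr1, the substance P receptor, had 74.5, 163 and 112 CPM and 89.9, 103 and 92.6 CPM, against 15.9 to 31.6 CPM (log2 fold change 2.15, SE 0.19). Members exceeded the others in every replicate for both. The level of Tacr1 differed by Ebf1, a split made after the values were seen and given below. Members with an Ebf1 UMI had 16.4 to 38.3 CPM of Tacr1 and those without had 136 to 214 CPM. For Chrm3 these were 1024 to 1255 CPM and 1255 to 1973 CPM.

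Drd1, the D1 dopamine receptor, had 10.3 to 17.5 CPM in aplCoA members and 11.7, 68.4 and 25.3 CPM in pplCoA members, against 1.08 to 5.00 CPM (log2 fold change 2.08, SE 0.41), and it was no longer called without aplCoA replicate 3 (adjusted p = 0.0197). Serotonin receptor genes rose in 4 cases, Htr1b, Htr2a, Htr2c and Htr7, with log2 fold changes of 1.38 to 2.04, whereas Htr1f fell by 1.10 (SE 0.11). Esr1, estrogen receptor alpha, had 16.1 to 30.8 CPM and 25.3 to 39.9 CPM, against 54.3 to 113 CPM (log2 fold change -1.82, SE 0.08, adjusted p = 2.32e-08). Oprm1, the mu opioid receptor, fell by 1.25 (SE 0.10).

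The counts of receptor genes stand beside 6.55% higher and 8.36% lower over all tested genes. Of 18 ionotropic glutamate receptor genes, 16 were tested, 6 rose and 1 fell, with a median of -0.08. The gene that fell, Grin2a, lost its call without any one of the aplCoA replicates or pplCoA replicate 1 (adjusted p = 0.0154 to 0.0190). Grik4, a kainate receptor subunit, had 143 to 178 CPM in aplCoA members and 151 to 314 CPM in pplCoA members, against 21.2 to 38.3 CPM (log2 fold change 2.44, SE 0.16). Of 16 GABA-A and glycine receptor genes, all tested, 4 rose and 2 fell. Glra3, a glycine receptor subunit, had 237 to 274 CPM in aplCoA members and 238, 160 and 84.2 CPM in pplCoA members, against 61.3 to 76.6 CPM (log2 fold change 1.66, SE 0.13). Gabrg3 rose by 1.35 (SE 0.08), and Gabrd, the delta subunit of extrasynaptic receptors, fell by 1.98 (SE 0.12). Of 7 metabotropic glutamate receptor genes, 5 were tested and 0 were called.

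Ion channel and release genes went both ways, beside 6.55% higher and 8.36% lower over all tested genes. Of 35 potassium channel genes, 34 were tested, 4 rose and 4 fell, led by Kcnh8 (log2 fold change 2.61, SE 0.24). Of 32 sodium, calcium and HCN channel genes, 29 were tested, 3 rose and 4 fell, led by the cation channel Trpc4 (2.05, SE 0.15), Cacna2d2 (1.99, SE 0.15) and the T-type calcium channel Cacna1g (1.66, SE 0.13). Of 29 release genes, 26 were tested, 1 rose and 6 fell. Syt17, a synaptotagmin, had 23.1 to 25.6 CPM in aplCoA members and 32.1, 22.8 and 0 CPM in pplCoA members, against 134 to 171 CPM (log2 fold change -2.62, SE 0.10), and Unc13c, a vesicle priming factor, was the gene that rose (1.89, SE 0.15).

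The next counts stand beside 6.55% higher and 8.36% lower over all tested genes. Of 22 neuropeptides and related secreted proteins, 6 were tested, 4 rose and 1 fell. Beside Nxph1 these were Scg2, secretogranin 2 (log2 fold change 1.67, SE 0.08), Cck, cholecystokinin (1.57, SE 0.13), and Vgf (1.12, SE 0.10), and Chgb fell by 1.08 (SE 0.09). Cck had 90.8 to 131 CPM in aplCoA members and 42.4, 39.9 and 118 CPM in pplCoA members, against 17.7 to 37.2 CPM. Of 12 activity-linked genes, 6 were tested, Egr1 rose (0.87, SE 0.12) and Bdnf fell by 0.86 (SE 0.18), which was lost without aplCoA replicate 1 (adjusted p = 0.0102). Of 13 mitochondrially encoded genes, 8 were tested and 0 were called, and 8 had a log2 fold change above 0, with a median of 0.27 beside 0.00 over all tested genes. The part of RNA quality in the results was not tested.

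Adhesion and guidance genes went both ways, beside 6.55% higher and 8.36% lower over all tested genes. Of 22 cadherins and protocadherins, 20 were tested, 7 rose and 3 fell; beside Cdh6, Pcdh15 (1.82, SE 0.34), Cdh18 (1.77, SE 0.28) and Cdh20 (1.68, SE 0.11) rose, and Cdh9 fell by 1.25 (SE 0.18). The Pcdh15 call was lost without aplCoA replicate 3 (adjusted p = 0.0107), and its level in pplCoA members was 1743, 479 and 84.2 CPM. Of 37 axon guidance genes, 32 were tested, 4 rose and 6 fell. Nrp1, a semaphorin receptor, rose (1.78, SE 0.13), and Ntng2, netrin G2, fell by 2.77 (SE 0.16), Epha4, an ephrin receptor, by 2.20 (SE 0.10) and Plxnd1 by 2.11 (SE 0.14). Over all the lists, 109 genes were called, and 20 of these (18.3%) lost their call with at least 1 replicate left out. Oprl1 lost it without any one of the 6 replicates and Tbr1 and Nfia without any one of 3, Glra1 without either of 2 and Gabra2 without 1. Of the 8 neuromodulator and hormone receptor genes that fell, 4 were among the 20.

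The members were next set against the 610 other glutamatergic nuclei with at least 2 VGluT2 UMIs and no VGluT1 UMI, in the 5 replicates that had 10 or more nuclei of each class. pplCoA replicate 3 was dropped from this fit. Of 9746 genes tested, 238 were higher and 202 lower in members (2.44% and 2.07%, together 4.51%), and 348 of the 440 had the same direction in every replicate, as had 18.3% of all tested genes.

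The comparison class had no VGluT1 UMI by construction, whereas 434 members had one and 65 members (4.68%) had no VGluT2 UMI, so the classes also differ in VGluT1. Mpped2, a metallophosphoesterase, had 103, 191 and 187 CPM in members of aplCoA replicates 1, 2 and 3 and 145 and 496 CPM in those of pplCoA replicates 1 and 2, against 15.7 to 33.4 CPM in the other VGluT2 nuclei (log2 fold change 2.94, SE 0.13, adjusted p = 2.85e-12). Vwc2l had 194 to 316 CPM and 250 and 702 CPM, against 33.3 to 77.9 CPM (log2 fold change 2.53, SE 0.14). Trdn, triadin, an anchor of calcium release channels, had 27.1 to 61.2 CPM and 49.7 and 188 CPM, against 0 to 9.16 CPM (log2 fold change 3.28, SE 0.25). Pappa2 (3.16, SE 0.27), Prkcq (3.04, SE 0.39), Abi3bp (2.91, SE 0.17), the LIM-domain cofactor Lmo2 (2.71, SE 0.33) and Foxp4 (2.50, SE 0.23) completed the leading genes. pplCoA replicate 2 rests here on 12 members and 10 other VGluT2 nuclei. In the split by Ebf1 given below, Trdn had 4.70 to 19.4 CPM in members with Ebf1 and 49.8 to 85.3 CPM without. Mpped2 had 35.3 to 46.4 CPM and 172 to 280 CPM, and Pappa2 12.9 to 22.7 CPM and 118 to 198 CPM. Vwc2l had 44.1 to 112 CPM and 293 to 452 CPM.

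Among fixed lists, Meis2 (log2 fold change 2.26, SE 0.18), Tacr1 (2.13, SE 0.19), the guidance cue Sema3a (2.07, SE 0.15), Cdh6 (2.02, SE 0.20) and Chrm3 (1.81, SE 0.16) rose. Genes lower in members included the noncoding Lncenc1, with 0 to 6.25 CPM against 28.9 to 44.5 CPM (log2 fold change -3.08, SE 0.24), and Cadps2, a dense-core vesicle priming factor, with 78.5 to 129 CPM against 378 to 489 CPM (log2 fold change -1.98, SE 0.10). Fam20a (-2.03, SE 0.20), Sdk1 (-1.89, SE 0.12), Tox3 (-1.70, SE 0.11), Epha4 (-1.67, SE 0.11), Tox (-1.65, SE 0.12) and Cep112 (-1.60, SE 0.15) followed, and the enkephalin precursor Penk fell by 2.04 (SE 0.20) and Nr2f2 by 1.36 (SE 0.12). Over all genes tested in this comparison, 2.44% were higher and 2.07% lower, and the list counts stand beside these shares. Of 15 tested cortical projection neuron factors, 5 fell and 4 rose (median 0.06), and of 10 tested medial amygdala and diencephalic factors, 4 rose and 1 fell (median 0.60). Of 31 tested neuromodulator and hormone receptor genes, 6 rose and 4 fell. For ionotropic glutamate receptors it was 2 and 1 of 16, and for GABA-A and glycine receptors 1 and 1 of 15. For potassium channels it was 2 and 3 of 34, and for sodium, calcium and HCN channels 1 and 2 of 29. For release genes it was 2 and 3 of 26. Cadherins and protocadherins gave 6 and 2 of 20, and axon guidance genes 7 and 6 of 31.

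Among themselves, members with and without a VGluT1 UMI differed, a split on a gene that the rule used. A VGluT1 UMI can also come from free RNA, whose part here was not tested. Splitting the members into 954 with VGluT2 and no VGluT1 UMI and 434 with a VGluT1 UMI, in the 4 replicates with enough nuclei of both, gave 67 genes higher with VGluT2 alone and 206 higher with VGluT1 of 10168 tested (0.659% and 2.03%, together 2.68%). Of the 273, 265 had the same direction in every replicate, as had 26% of all tested genes. Without aplCoA replicate 3, 176 were called. pplCoA replicates 2 and 3 did not enter.

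Of 18 tested cortical projection neuron factors, 7 were lower with VGluT2 alone, 0 higher and 11 not called, beside 2.03% lower and 0.659% higher over all tested genes. Nfib, a nuclear factor I gene, fell by 2.22 on the log2 scale in members with VGluT2 alone, Neurod2 by 2.18 and Sox5 by 1.45. Outside that list, Syt17 fell by 2.58, and Palmd had 0.667 to 7.69 CPM with VGluT2 alone against 17.4 to 36.2 CPM with VGluT1 (log2 fold change -2.53, SE 0.23, adjusted p = 1.06e-06). Palld (-2.68, SE 0.26), Krt12 (-2.68, SE 0.21), Itga8 (-2.58, SE 0.19) and Scube1 (-2.50, SE 0.25) were the other leading genes.

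On the side of VGluT2 alone, Gpr149 (log2 fold change 1.38, SE 0.18), Cntnap3 (1.37, SE 0.19), Sytl5 (1.25, SE 0.21), L3mbtl4 (1.24, SE 0.16), Epsti1 (1.07, SE 0.24) and the receptor tyrosine kinase Alk (1.04, SE 0.13) led. Alk had 178 to 264 CPM against 70.7 to 145 CPM. Nuclei set aside by doublet scores made up 22.1% of members with VGluT1 and 6.92% of those with VGluT2 alone, with median depths of 14600.5 and 11376 UMIs. Without those nuclei 195 genes were called, 43 and 152, and the part of mixed nuclei in the rest was not tested.

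Members with and without Ebf1 also carried different genes, a split made after the values were seen and given without a test. By the rule, a member without Ebf1 carries both Meis1 and Pbx3, with at least 5 UMIs between them. A member with Ebf1 can pass with fewer UMIs of these, and 109 members had Ebf1 and Pbx3 but no Meis1. The rule thus chose the kinds unlike in Meis1 and Pbx3, and the part of this in the split was not tested. There were 667 members with an Ebf1 UMI and 721 without, with median depths of 11021 and 13306 UMIs, and 4 replicates had at least 10 of each. Il1rapl2, a synaptic adhesion protein, had 221, 88.0 and 326 CPM in members with Ebf1 of aplCoA replicates 1, 2 and 3 and 162 CPM in those of pplCoA replicate 1, against 1341, 2205 and 2446 CPM and 1739 CPM in members without it. Tacr1 had 16.4 to 38.3 CPM with Ebf1 and 136 to 214 CPM without, Pappa2 12.9 to 22.7 CPM and 118 to 198 CPM, and Mpped2 35.3 to 46.4 CPM and 172 to 280 CPM. In each case the ranges did not overlap, and they did not overlap for 13.9% of the 6808 genes with a mean of at least 20 CPM in either kind. The 4 genes named here were picked, after their values were seen, from the 8 with the largest ratios on this side, and Lypd6b, Trdn, Synpo2 and Pde3a were the others of the 8. Nuclei set aside by doublet scores made up 13.6% of members with Ebf1 and 9.85% of those without.

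On the other side, Gfra1, a receptor for GDNF, had 31.8 to 72.7 CPM with Ebf1 and 5.25 to 18.3 CPM without, Zfp423, a partner of EBF factors, 88.7 to 141 CPM and 23.7 to 31.3 CPM, and Sox5 143 to 208 CPM and 23.3 to 73.5 CPM. Pld1, Zan, Sgpp2, Sema5a and Adarb2 completed the 8 on this side. The 12 genes that led the comparison with the other glutamatergic nuclei were all higher without Ebf1 in all 4 replicates, and their ranges did not overlap. The rule asks more Meis1 and Pbx3 UMIs of members without Ebf1, as given above, and its part here was not tested. Nxph1 had 783 to 1152 CPM without Ebf1 and 232 to 277 CPM with it, Foxp2 86.0 to 154 CPM and 30.8 to 68.1 CPM, Gpr149 28.1 to 56.1 CPM and 7.06 to 12.3 CPM, and Hs3st4 2350 to 3025 CPM and 1350 to 1708 CPM. Zfhx3 and Chrm3 did not overlap either, and were higher without Ebf1. Meis2 and Lhx9 overlapped, at 662 to 759 CPM and 703 to 990 CPM for Meis2 and 12.4 to 25.5 CPM and 16.2 to 24.6 CPM for Lhx9. Members without Ebf1 in pplCoA replicate 2, which had 10 of them and too few with Ebf1 for the split, had 2327 CPM of Nxph1, 3438 CPM of Gpc5 and 527 CPM of Cdh6. All 9 members of pplCoA replicate 3 were without Ebf1, and their levels of these genes are those given above for that replicate.

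**Figure D5:**
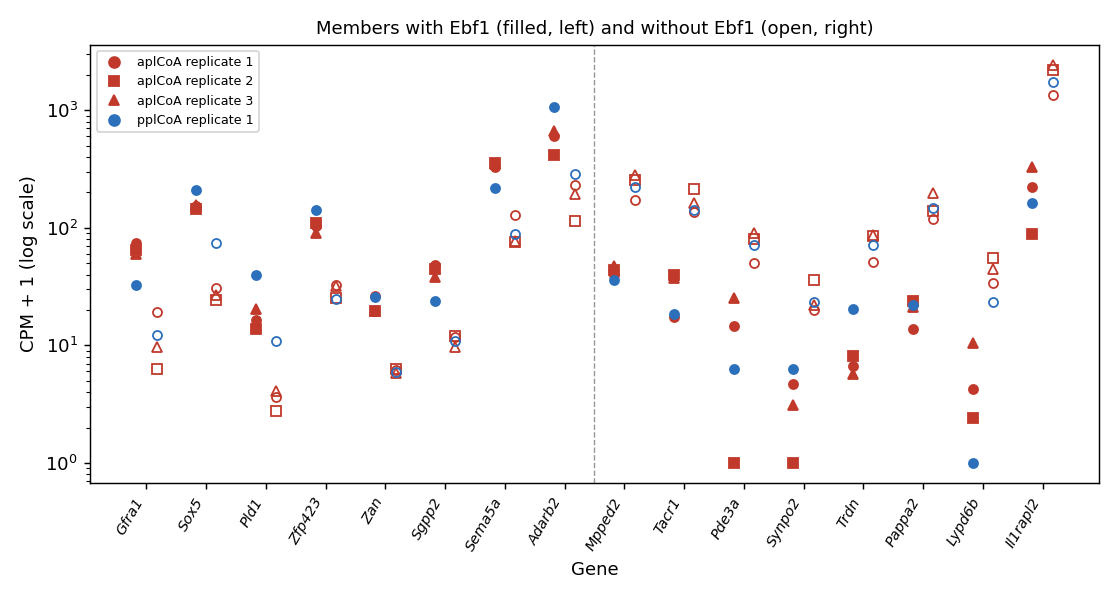
CPM plus 1 on a log scale in members with an Ebf1 UMI (filled, left) and without one (open, right) for the 8 genes with the largest ratio in each direction, in the 4 replicates with at least 10 members of both kinds. Il1rapl2 spans 88.0 to 326 CPM with Ebf1 and 1341 to 2446 CPM without.

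Between domains, gene levels within the members were compared over 3 against 3 sums, of which pplCoA replicates 2 and 3 rest on 12 and 9 nuclei. Of 10161 genes tested, 0 were called by edgeR's quasi-likelihood test (0%, in either direction), and the smallest adjusted p was 0.103. At an unadjusted p below 0.05 there were 1002 genes (9.86%). DESeq2 called 5 and edgeR's likelihood ratio test 74. Without pplCoA replicate 1, which holds 94 of the 115 pplCoA members, 91 were called, of which aplCoA had the higher level for 25 and pplCoA for 66. The median standard error was 0.28 on the log2 scale, against 0.10 in the comparison with other glutamatergic nuclei.

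The genes below were picked from genes with a common name, no overlap between domains and at least 20 CPM in the higher domain. Those with the lowest p in each direction are given as not called. Hspa8, a heat shock chaperone, had 152, 150 and 89.8 CPM in aplCoA members and 41.6, 34.2 and 33.7 CPM in pplCoA members (log2 fold change 1.67, SE 0.27, adjusted p = 0.103). Ubb, a ubiquitin gene, had 230, 267 and 137 CPM and 64.3, 74.1 and 67.4 CPM (1.61, SE 0.28, adjusted p = 0.103), and Hsp90aa1, another chaperone, 142, 170 and 115 CPM and 60.6, 39.9 and 75.8 CPM (1.22, SE 0.23). The domains did not overlap for these genes because this was required of them, and 18.9% of all tested genes did not overlap. Mitochondrially encoded genes, a sign of RNA quality, are given beside them. Of the 8 tested, 0 were called and 8 had a log2 fold change above 0, with a median of 0.87 beside 0.01 over all tested genes. mt-Co1, a subunit of cytochrome c oxidase, had 71.7, 60.4 and 45.2 CPM in aplCoA and 38.7, 34.2 and 16.8 CPM in pplCoA members, and 41.4 to 56.6 CPM and 21.5 to 30.0 CPM in the other glutamatergic nuclei. The part of RNA quality in these differences was not tested.

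The same genes stood apart in the other glutamatergic nuclei of the same libraries, with a mean of 82.9 CPM of Hspa8 in aplCoA and 34.3 CPM in pplCoA, and of 135 CPM and 56.5 CPM of Ubb. Tmem30a, a flippase subunit, had a log2 fold change of 1.08 (SE 0.21) in members. In the other direction, Vegfa, a vascular growth factor, had 7.03 to 8.76 CPM in aplCoA and 16.8 to 28.5 CPM in pplCoA members (log2 fold change -1.54, SE 0.31, adjusted p = 0.152), Hepacam 7.91 to 11.2 CPM and 16.8 to 28.5 CPM (-1.47, SE 0.31), Pard3bos1 49.9 to 67.4 CPM and 101 to 379 CPM (-1.73, SE 0.37), and Rreb1 60.8 to 74.1 CPM and 109 to 152 CPM (-0.82, SE 0.18). Pard3bos1 also differed by Ebf1 among members, at 12.4 to 24.5 CPM with it and 79.9 to 163 CPM without. Ebf1 was detected in 2 of 12 members of pplCoA replicate 2 and 0 of 9 of replicate 3. The part of Ebf1 in this difference was not tested. In pplCoA replicate 3 a single UMI corresponds to 8.42 CPM.

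Whether the domain difference was another one in members than in the other glutamatergic nuclei was tested as an interaction, called at an adjusted p below 0.05. Of 10118 genes, 0 passed by edgeR's quasi-likelihood test (0%), the smallest adjusted p was 0.483, and 599 genes (5.92%) lay below 0.05 before adjustment. DESeq2 called 0 and edgeR's likelihood ratio test 55. Without pplCoA replicate 1, 196 passed. Among genes with a common name and at least 20 CPM in the higher class, those with the lowest p were Pard3, Kcnip1, Foxp2, Sox6 and Gpam.

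Pard3, a cell polarity gene, had 154 to 165 CPM in aplCoA members and 125 to 161 CPM in pplCoA members, and 56.6 to 60.8 CPM and 19.1 to 34.6 CPM in the other nuclei (interaction -0.90 on the log2 scale, SE 0.15, adjusted p = 0.483). For Foxp2 the other nuclei had 5.32 to 6.74 CPM in aplCoA and 1.08 to 1.91 CPM in pplCoA, and the members 95.6 to 122 CPM and 62.7 to 75.8 CPM. The ratio of the domains was smaller in members and the difference in CPM larger (interaction of log2 ratios -1.23, SE 0.24, not called).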

How the data were processed

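The authors sequenced 10x 3' v3.1 libraries and deposited unfiltered matrices of UMI counts per gene and barcode, made per the labels with Cell Ranger 5.0.0 on mm10 with intronic reads counted. The deposited counts were not normalized, and the 7 libraries held 50812605 to 129624583 UMIs. Samples were grouped by labelled domain, and both libraries of aplCoA replicate 1 were summed. The members, gene lists and tests were chosen with earlier results of these data known.

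The share of members per replicate was compared by an exact permutation test, and transporter shares, which the rule touches, are given without one. UMI counts summed per replicate and class were tested with edgeR 4.0.16 (quasi-likelihood, TMM, Benjamini-Hochberg adjustment over all genes tested) in R 4.3.3, in genes with a UMI in at least 10% of nuclei of either class. Sums of fewer than 10 nuclei left their replicate out of the comparison with other VGluT2 nuclei and of the comparison by transporter. The same scripts were tested on simulated data with changes of 2 on the log2 scale. They recovered 87.5% of these for members between domains and 99% to 100% in the other comparisons simulated. The simulation gave every sum the same extra spread, whatever its number of nuclei. It therefore does not show what share of real changes the domain comparison would find. Doublet scores came from Scrublet in scanpy 1.11.5, taking the highest 1% per 1000 nuclei of each library, and were used only in alternatives. Neighbours used 30 principal components.

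The genes named were the called genes with the largest and the lowest log2 fold changes that had the same sign in all replicates and at least 20 CPM in the higher class, and the leading called genes of each list. Between domains and for the interaction, genes not called were named by lowest p at the same CPM floor. Between domains these genes also had to show no overlap. Further list genes were named after their values were seen. Some list genes that the rule would name are not reported here. The planned microglia-like gate of 3 UMIs gave VGluT1 alone in 19.7% and VGluT2 alone in 2.52% of nuclei at 2000 UMIs. A gate of 10 UMIs was used instead. Whether the gate of 3 UMIs took in neurons was not tested. Alternatives covered the test, with DESeq2 1.42.0 among them, the size factors, gene filter, threshold, depth limits, doublets, marker gate, libraries, domains and the leaving out of each replicate.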

Additional observations from a re-analysis of the deposited data

How the results depend on the processing

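Of the directions compared across alternatives, 1 was reversed. The share of members with VGluT1 was 5.26 percentage points above that of microglia-like nuclei with the gate of 10 UMIs and -9.86 with the gate of 3. The share of members stayed higher in every aplCoA than in every pplCoA replicate in all settings. Its difference was 11.3 to 12.8 percentage points with 1 replicate left out, and with the domains compared within replicate numbers (replicate block) it gave p = 0.25 in the exact permutation test, the smallest that 3 pairs allow. The labels used here do not say whether same-numbered replicates share animals or days, and the deviations of same-numbered sums correlated by 0.218, 0.0123 and 0.0631, so a pairing was not shown. Against other glutamatergic nuclei, 1509 genes became 2496 with no filter beyond 10 UMIs in all, 335 in pplCoA alone, 1449 with no replicate block and 1338 to 1513 with 1 replicate left out. Against other VGluT2 nuclei, 440 became 287 with no replicate block and 333 to 441 with 1 replicate left out. By transporter, 273 became 171 with DESeq2, 158 with no replicate block and 176 to 298 with 1 replicate left out. Between domains, 0 became 74 with the likelihood ratio test, 5 with DESeq2, 11 with no filter beyond 10 UMIs, 5 with a ceiling of 20000 UMIs, 0 with the replicate block and 0 to 91 with 1 replicate left out, 91 being without pplCoA replicate 1. For the interaction, 0 became 55 with the likelihood ratio test, 188 with no such filter and 0 to 196 with 1 replicate left out, 196 again being without pplCoA replicate 1. The cause was not tested, except that fewer filters test more genes. Of 2996 values of single genes against other glutamatergic nuclei, 2829 kept their call and 167 lost it. For other VGluT2 nuclei these were 1050 and 93 of 1143, and by transporter 478 and 70 of 548. Vascular nuclei, pplCoA replicates 2 and 3 and the microglia-like gate were settings chosen after seeing the data. In comparisons between domains, pplCoA replicates 2 and 3 rest on 12 and 9 members, and pooled tissue gives the spread between pools, not animals.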
